A study of Mus musculus with 42 samples.

Results

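Pax2, Pax8, Wt1, Lhx1, Osr1, Osr2, Sall1, Irx1, Foxc1 and Tcf21 are transcription factors best known from the embryonic kidney. They were taken by symbol from the deposited count and RPKM tables, where all 10 were found among 40701 gene symbols. The 42 libraries were made from cortex of mice aged 12 weeks in which 1 ureter had been tied (unilateral ureteral obstruction, UUO). They cover obstructed kidneys on day 5 (D5UUO) and day 10 (D10UUO) and, as the comparison, contralateral kidneys labelled healthy controls (CLK). In each of these states the proximal tubule fraction (PT), RNA of GFP-tagged ribosomes pulled down with the anti-GFP antibodies 19C8 and 19F7 (translating ribosome affinity purification), and a fraction labelled total kidney (Total) were sequenced from 4 males and 3 females. The labels give neither the transgene's driver, nor the day of the contralateral kidneys, nor whether Total is the unbound fraction, and they do not say that each library is a separate animal, so p-values measure the spread between libraries.

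During nephron formation Osr1, Lhx1, Pax2 and Pax8 act in the intermediate mesoderm, from which the kidney arises. Wt1, Sall1 and Osr1 then act in the progenitors that turn into nephrons, Lhx1 acts in the early nephron vesicle, and Irx1 is expressed where the middle part of the nephron forms. Foxc1 and Tcf21 act in podocyte precursors and in the mesenchyme between the tubules. In the adult kidney Wt1 is the classical nuclear marker of podocytes, the filter cells of the glomerulus, while Pax2 and Pax8 remain in tubule epithelium.

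Library totals were 9.31 to 43.6 M counts (median 18.5 M), and levels are given as counts per M on the TMM-scaled library size (CPM). Changes are log2 fold changes ± standard error from edgeR's quasi-likelihood test with Benjamini-Hochberg adjusted p-values over all genes tested. A gene rose or fell where the adjusted p was under 0.05 and the change at least 2-fold. Proximal tubule markers summed to medians of 4920, 6380 and 27000 CPM in PT at day 5, day 10 and in contralateral kidneys, against 2590, 1970 and 18000 CPM in Total. Of these 12 markers 5 were higher in PT than in Total at day 5 and 7 at day 10, while in contralateral kidneys 0 were higher and 1 was lower in PT. The level of Lars2, a mitochondrial tRNA synthetase gene, ran from 1715 to 43630 CPM. Scaling by library size alone would move the median log2 change of all genes up by 0.47 and 0.44 in PT at day 5 and day 10, and up by 0.44 and 0.36 in Total. With it 83.2% of calls in PT at day 5 were higher instead of 59.6%, and 82.9% instead of 62.2% at day 10. In Total the shares were 80.4% instead of 59.1% at day 5 and 76.0% instead of 60.3% at day 10. Between PT and Total the share of calls higher in PT was 4.73% instead of 14.4% at day 5, 10.6% instead of 23.5% at day 10 and 0.613% instead of 4.8% in contralateral kidneys. Of the calls for sex by day in Total the share with a larger response in females was 38.8% instead of 57.6% at day 5 and 45.2% instead of 71.0% at day 10.

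In PT, 2 members rose at day 5 (Wt1 and Foxc1) and 1 fell (Lhx1), of the 9 that passed the filter on low counts. Over all 14932 genes tested 18.2% rose and 12.4% fell, and 53.5% had an adjusted p under 0.05 at any fold, against 5 of the 9 members. At day 10 Wt1, Foxc1 and Tcf21 rose and Lhx1 and Osr1 fell, where 19.7% of all genes rose and 12% fell. In Total, Tcf21 rose and Lhx1 fell at day 5, against 19.2% and 13.3% of 16782 genes. There 58.7% of all genes had an adjusted p under 0.05 at any fold, against 4 of the 10 members. At day 10 Tcf21 and Foxc1 rose in Total and Lhx1, Osr1 and Osr2 fell, against 20.9% and 13.8% of all genes. The median log2 change of the members was 0.41 and 0.19 in PT at day 5 and day 10, where that of all genes was 0.05 and 0.05, and it was 0.14 and 0.17 in Total, where that of all genes was 0.04 and 0.06. With 9 or 10 genes tested, these counts are a description of single genes and not a result about the 10 as a group. Between day 10 and day 5 no member was called in either fraction, while 0.422% of genes were higher and 0.0201% lower at day 10 in PT and 0.352% and 0.0417% in Total. At an unadjusted p under 0.05, Wt1 and Tcf21 differed between the days in PT, and Wt1, Osr1, Osr2 and Foxc1 in Total, where 1573 of 14932 genes in PT and 1930 of 16782 in Total had such a p.

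**Figure D1:**
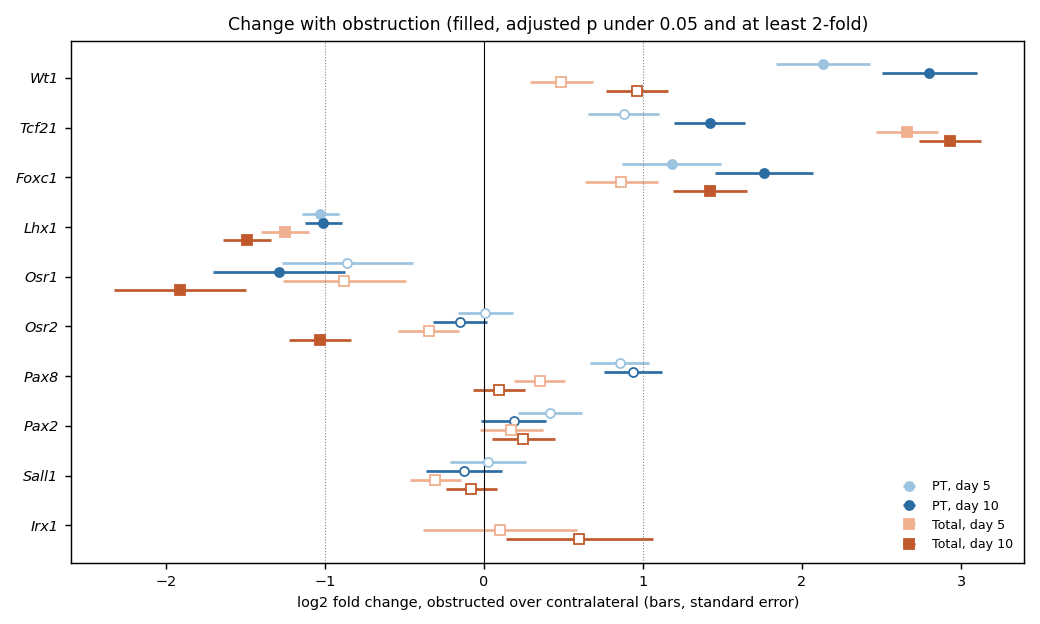
Log2 fold change of each gene in obstructed over contralateral kidneys, in PT (circles) and Total (squares), with the standard error as a bar; filled symbols had an adjusted p under 0.05 and at least 2-fold. Wt1 lies furthest to the right in PT (2.8 at day 10) and Tcf21 in Total (2.93 at day 10); Irx1 was not tested in PT.

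Wt1, a zinc-finger factor needed for nephron formation and for podocytes, rose in PT at both days. PT libraries held 8.21 to 15.7 CPM (median 11.8) at day 5 and 10.3 to 32.0 CPM (median 17.8) at day 10, against 1.26 to 4.6 CPM (median 2.5) in contralateral kidneys. Every obstructed PT library was above every contralateral one. The share of all genes whose libraries separate in this way was not counted, for Wt1 or for the genes below. The counts behind these levels were 127 to 319 reads at day 5 and 129 to 615 at day 10, against 20 to 87 in contralateral kidneys. The log2 change was 2.13 ± 0.30 at day 5 (edgeR adjusted p = 3.8e-06) and 2.8 ± 0.30 at day 10 (edgeR adjusted p = 1.08e-07), a 4.38-fold and a 6.96-fold rise. At day 10 the 2 highest libraries, female replicate 2 with 30.9 CPM and male replicate 3 with 32.0 CPM, stood well above the other 5, which held 10.3 to 19.1 CPM. Whether more cells carried Wt1 or each cell held more of it cannot be told apart in bulk RNA, here and for every gene below.

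In Total, Wt1 was 7.61 to 12.4 CPM (median 10.8) at day 5 and 7.20 to 17.6 CPM (median 14.9) at day 10, against 4.6 to 13.4 CPM (median 6.15) in contralateral kidneys. The groups overlapped, and neither day passed both thresholds, with log2 changes of 0.49 ± 0.20 (edgeR adjusted p = 0.0373) and 0.96 ± 0.20 (edgeR adjusted p = 0.000191). The contralateral maximum was 1 female library, replicate 1, without which the day 10 change was 1.17 and passed both. Leaving out male contralateral replicate 1, male day 10 replicate 4 or female day 10 replicate 2 also took it past 2-fold, at 1.04, 1.06 and 1.04. It passed too with library size alone (1.32), with at least 5 CPM in 3 libraries (1.02) and with limma on log2(RPKM + 0.1) (1.25).

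The response of Wt1 differed between the fractions. The change in PT exceeded that in Total by 1.62 ± 0.36 on the log2 scale at day 5 (edgeR adjusted p = 0.00334) and by 1.89 ± 0.36 at day 10 (edgeR adjusted p = 4e-04), where 3.02% and 4.68% of 17110 genes had a larger response in PT. On limma's log2(RPKM + 1) scale the differences were 0.62 (limma adjusted p = 0.102) and 0.78 (limma adjusted p = 0.0235), both under 1. In contralateral kidneys Wt1 was lower in PT than in Total by 1.35 ± 0.27, with 2.8 ± 1.22 CPM in PT and 7.01 ± 3.04 CPM in Total (edgeR adjusted p = 6.98e-05). In obstructed kidneys PT was above Total by 0.27 ± 0.25 at day 5 and 0.54 ± 0.25 at day 10, neither of which passed the test (edgeR adjusted p = 0.368 and 0.0587).

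Podocyte markers were set beside Wt1, since podocytes are its usual source. Nphs1, which encodes the slit diaphragm protein nephrin, and Podxl, which encodes the surface protein podocalyxin, did not pass the test in PT. Nphs1 was 0.676 to 1.71 CPM at day 5 and 0.713 to 1.81 CPM at day 10 in PT, against 1.24 to 2.59 CPM in contralateral kidneys (log2 changes -0.44 ± 0.28 and -0.45 ± 0.28). Podxl was 3.77 to 9.98 CPM at day 5 and 3.75 to 11.2 CPM at day 10 in PT, against 3.4 to 10.7 CPM in contralateral kidneys (-0.16 ± 0.28 and 0.05 ± 0.28). The ranges of both overlapped between obstructed and contralateral libraries, unlike those of Wt1. In Total Nphs1 was 2.17 to 4.51 CPM at day 5 and 0.969 to 6.05 CPM at day 10, against 2.68 to 11.2 CPM in contralateral kidneys, and Podxl was 26 to 36.9 CPM and 19.6 to 52.4 CPM, against 23.8 to 59.7 CPM. Neither marker was at 0 in a group. Of the whole list of 14 podocyte markers, 4 rose and 3 fell in PT at day 5, and 4 rose and 2 fell at day 10. Those that rose at both days were Synpo, an actin-bundling protein (1.77 ± 0.19 and 2.06 ± 0.20), Plce1, a phospholipase (1.43 ± 0.31 and 1.38 ± 0.31), Thsd7a (1.17 ± 0.29 and 1.51 ± 0.29) and Kirrel, a nephrin relative (4.49 ± 0.54 and 4.44 ± 0.54). Kirrel held 0 to 3 reads per library in contralateral PT, so its fold is measured from near 0. The collagen genes Col4a3 (-1.63 ± 0.38 and -1.58 ± 0.38) and Col4a4 (-2.3 ± 0.33 and -1.68 ± 0.33) fell at both days. The part of these genes' source cells in the Wt1 result was not tested. Wt1os, the antisense gene whose annotated start lies 18 bases from Wt1, was at 0.38 ± 0.18 CPM at day 5 and 0.49 ± 0.28 CPM at day 10 in PT, against 0.23 ± 0.28 CPM in contralateral kidneys.

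**Figure D2:**
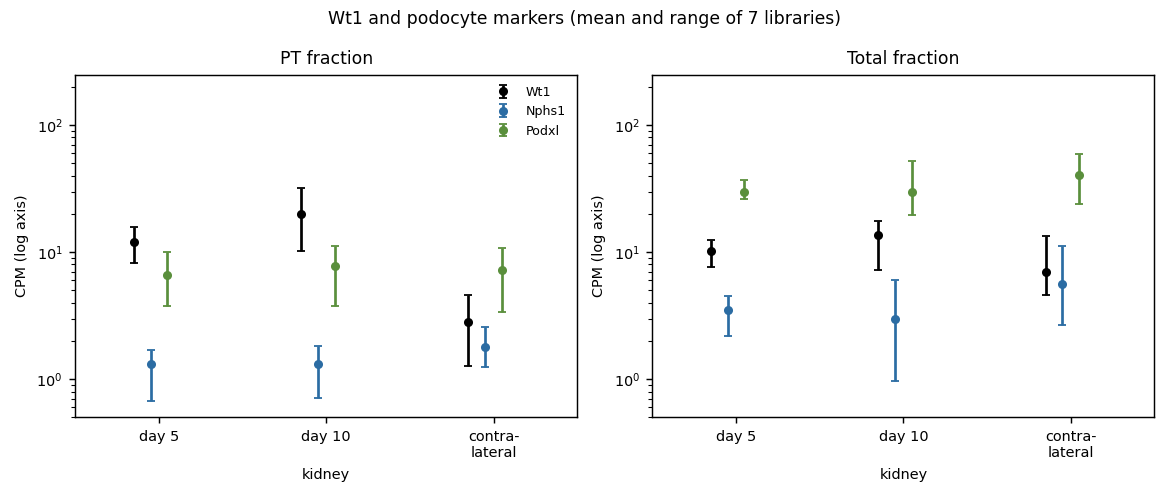
CPM on a log axis of Wt1 and of the podocyte markers Nphs1 and Podxl, as the mean (point) and range (bar) of 7 libraries at day 5, at day 10 and in contralateral kidneys, with PT on the left and Total on the right. In PT the Wt1 range at day 10 (10.3 to 32.0) lies above its contralateral range (1.26 to 4.6), while the ranges of both markers overlap between those states.

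The genes most like Wt1 were taken by Pearson's r of log2 CPM, a description over libraries that share states and fractions. Over all 42 libraries these were Mapk11, a p38 kinase (r = 0.905), Cybrd1 (r = 0.896) and Fam167a (r = 0.883). Mapk11 was 11.9 ± 1.36 CPM at day 5 and 17.2 ± 4.01 CPM at day 10 in PT, against 0.13 ± 0.12 CPM in contralateral kidneys. Over the 21 PT libraries they were Fblim1, a filamin-binding adhesion protein (r = 0.95), Snx10, a sorting nexin (r = 0.95), Upp1, a uridine phosphorylase (r = 0.949), Fam167a (r = 0.948) and Mybpc2 (r = 0.945).

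Tcf21, a basic helix-loop-helix factor of renal mesenchyme, and Foxc1, a forkhead factor, rose together in both fractions by day 10, so their upstream sequences are shown with that of Lhx1, which fell in both. The windows are the 250 bases before the annotated start, from RefSeq on GRCm38.p6, read on the gene's strand, and capitals mark a CCAAT box (CCAAT or, on the other strand, ATTGG). Windows were matched for 6 of the 10 genes, not for Wt1, Osr1, Osr2 and Irx1.
Tcf21, chr10:22820144-22820393, minus strand: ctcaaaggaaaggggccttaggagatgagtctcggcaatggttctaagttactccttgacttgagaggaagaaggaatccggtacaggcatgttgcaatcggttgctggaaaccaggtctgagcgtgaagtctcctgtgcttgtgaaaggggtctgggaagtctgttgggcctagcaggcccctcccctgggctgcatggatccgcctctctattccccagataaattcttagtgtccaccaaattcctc
Foxc1, chr13:31806396-31806645, plus strand: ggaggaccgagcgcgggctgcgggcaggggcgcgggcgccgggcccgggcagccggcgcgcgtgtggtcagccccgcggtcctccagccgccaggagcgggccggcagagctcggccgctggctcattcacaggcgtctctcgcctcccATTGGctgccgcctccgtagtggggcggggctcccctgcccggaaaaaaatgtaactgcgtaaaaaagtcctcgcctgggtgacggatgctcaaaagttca
Lhx1, chr11:84525535-84525784, minus strand: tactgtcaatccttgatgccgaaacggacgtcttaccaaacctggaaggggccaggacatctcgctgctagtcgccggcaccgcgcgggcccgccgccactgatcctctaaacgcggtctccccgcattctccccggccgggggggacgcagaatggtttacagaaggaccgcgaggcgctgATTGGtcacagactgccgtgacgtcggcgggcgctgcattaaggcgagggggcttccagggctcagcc
The Foxc1 and Lhx1 windows are rich in CG, with 29 and 26 CG dinucleotides, more than 93.2% and 90.4% of 32851 such windows. The Tcf21 window has 5, and the median window 6. A CCAAT box occurs once each in the Foxc1 and Lhx1 windows and not in that of Tcf21, and 33.8% of all windows hold one. None of the 3 holds an E-box (CANNTG on both strands, in 66.2% of all windows), a Wt1 and Egr motif (GNGTGGGNG on both strands, in 12.7%) or a TATA box (TATAAA on both strands, in 12.4%).

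Tcf21 had the largest rise of the 10 genes in Total. Total libraries held 43.2 to 101 CPM (median 68.9) at day 5 and 40.9 to 151 CPM (median 76.7) at day 10, against 5.43 to 17.3 CPM (median 9.09) in contralateral kidneys. The obstructed and contralateral libraries did not overlap at either day. The log2 change was 2.66 ± 0.19 at day 5 (edgeR adjusted p = 6.38e-11) and 2.93 ± 0.20 at day 10 (edgeR adjusted p = 1.07e-11), a 6.32-fold and a 7.62-fold rise. In PT the level was 3.56 to 7.02 CPM (median 6.30) at day 5 and 4.86 to 16.7 CPM (median 6.98) at day 10, against 1.90 to 4.88 CPM (median 2.84) in contralateral kidneys. The day 10 change of 1.42 ± 0.22 passed the test (edgeR adjusted p = 1.63e-05), and that at day 5 stayed under 2-fold (0.88 ± 0.22, edgeR adjusted p = 0.00221). The response was smaller in PT than in Total by 1.80 ± 0.29 at day 5 (-1.80, edgeR adjusted p = 3.48e-05) and by 1.47 ± 0.29 at day 10 (-1.47, edgeR adjusted p = 0.00043), where 1.24% and 1.08% of all genes had a smaller response in PT. At day 10 the female libraries of Total held 92.7, 99.8 and 151 CPM and the males 76.7, 40.9, 52.4 and 59.4 CPM, and the interaction of sex with day did not pass the test.

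Foxc1 counts were low in PT, with 23 to 50 reads at day 5 and 35 to 97 at day 10, against 8 to 22 in contralateral kidneys. PT libraries held 1.27 to 3.11 CPM (median 1.69) at day 5 and 1.76 to 4.54 CPM (median 2.69) at day 10, against 0.53 to 1.84 CPM (median 0.67) in contralateral kidneys. A single contralateral library, female replicate 1 with 1.84 CPM, reached into the obstructed ranges, and the other 6 held 0.53 to 0.82 CPM. The log2 change was 1.18 ± 0.31 at day 5 (edgeR adjusted p = 0.00311) and 1.76 ± 0.31 at day 10 (edgeR adjusted p = 5.94e-05). Without female day 5 replicate 3 the day 5 change was 0.98, under 2-fold, and on limma's log2(RPKM + 1) scale the changes were 0.36 and 0.57. In Total the level was 7.01 to 20.7 CPM (median 11.2) at day 5 and 6.63 to 32.3 CPM (median 15.6) at day 10, against 4.17 to 8.07 CPM (median 6.71) in contralateral kidneys. The groups overlapped at both days, and the change passed the test at day 10 (1.42 ± 0.23, edgeR adjusted p = 1.25e-05) but not at day 5 (0.86 ± 0.23, edgeR adjusted p = 0.00257, under 2-fold; 1.02 with Lars2 as a covariate, 1.31 with library size alone and 1.21 with limma on log2(RPKM + 0.1), all past it).

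Fibroblast markers moved with both genes. Of 15 markers 14 rose at day 5 and 15 at day 10 in Total, and 10 of the 11 tested rose at each day in PT. Their summed level in Total was 873 to 1190 CPM at day 5 and 892 to 2280 CPM at day 10, against 112 to 205 CPM in contralateral kidneys. In PT it was 33.9 to 63.0 CPM at day 5 and 52.1 to 93.3 CPM at day 10, against 6.35 to 12.5 CPM in contralateral kidneys. None of the defining markers Col1a1, Col3a1, Dcn and Pdgfrb was at 0 in a group, and their part in the Tcf21 and Foxc1 results was not tested. The genes most like Tcf21 over the 42 libraries were Il33, a cytokine (r = 0.97), C1qtnf7 (r = 0.967) and Spon1 (r = 0.965), and those most like Foxc1 were Ank, a pyrophosphate transporter (r = 0.971), Cacna2d1 (r = 0.965) and Srgn (r = 0.964).

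**Figure D3:**
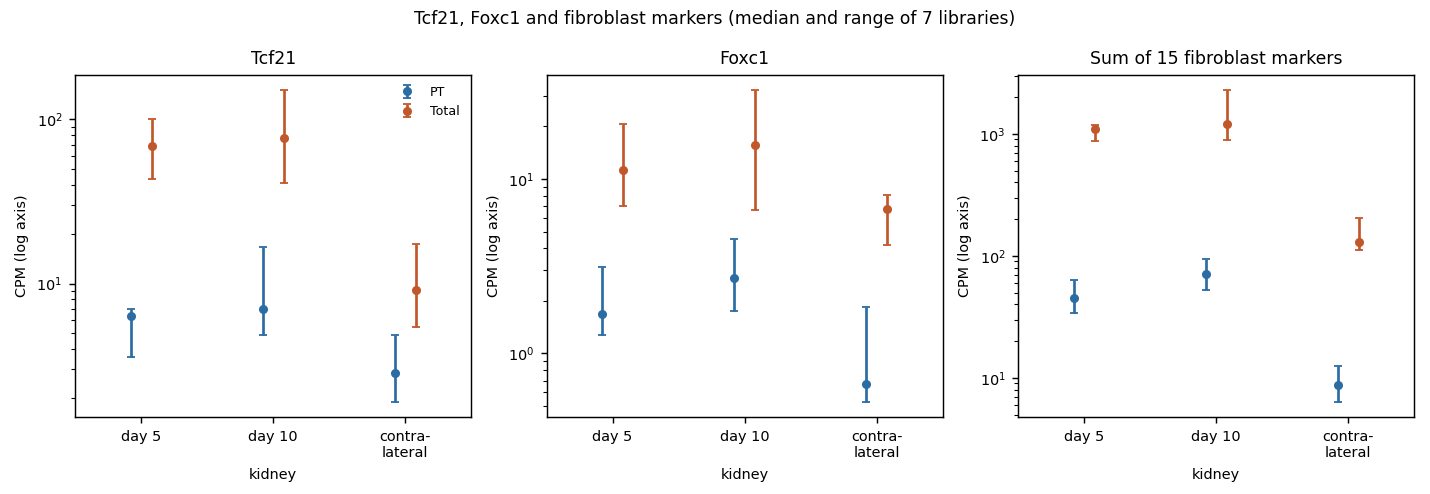
CPM on a log axis of Tcf21, Foxc1 and the sum of 15 fibroblast markers in PT (blue) and Total (orange), as the median (point) and range (bar) of 7 libraries at day 5, at day 10 and in contralateral kidneys. PT lies below Total in each panel and state, and the obstructed medians lie above the contralateral medians in both fractions.

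Lhx1, a LIM-homeobox factor of the early nephron, fell in both fractions with no overlap between states. PT libraries held 14.0 to 19.3 CPM (median 15.6) at day 5 and 12.3 to 20 CPM (median 16.7) at day 10, against 29.2 to 34.5 CPM (median 31.6) in contralateral kidneys. Total libraries held 16.3 to 23.7 CPM (median 20.7) at day 5 and 11.2 to 21.9 CPM (median 16.3) at day 10, against 38.0 to 62.3 CPM (median 47.7) in contralateral kidneys. The spread within a state was small next to the difference between states. The log2 changes were -1.03 ± 0.12 and -1.01 ± 0.12 in PT (edgeR adjusted p = 2.81e-07 and 2.91e-07) and -1.25 ± 0.15 and -1.49 ± 0.15 in Total (edgeR adjusted p = 1.7e-07 and 1.06e-08). The PT values lie close to the 2-fold limit. They fell under it at day 5 without male day 5 replicate 3 (-0.994). At day 10 they did so without male contralateral replicate 1 (-0.988), male day 10 replicate 1 (-0.974), female contralateral replicate 2 (-0.994) or female day 10 replicate 1 (-0.975), and marginally without female contralateral replicate 3. With library size alone they were -0.56 and -0.57, and -0.81 in Total at day 5, a scaling that moves the median of all genes up. With at least 5 CPM in 3 libraries they were -0.98 and -0.966, and without the filter -0.994 at day 10. On limma's log2(RPKM + 1) scale they were -0.46 and -0.48, and -0.71 in Total at day 5. With limma on log2(RPKM + 0.1) they were -0.55 and -0.57, and -0.79 in Total at day 5.

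Lhx1os, the noncoding neighbour that starts 124 bases from Lhx1 on the other strand, ran the same way. It was 14.9 ± 2.54 CPM at day 5 and 16.7 ± 6.31 CPM at day 10 in PT, against 29.6 ± 4.99 CPM in contralateral kidneys, and 11.7 ± 2.52 and 11.4 ± 3.02 CPM in Total, against 33.2 ± 5.37 CPM. The strand setting of the counting is not given in the sources used here, so reads of such neighbours cannot be assigned by strand. Genes most like Lhx1 were Rab11fip4 (r = 0.924), Pvalb, the calcium-binding parvalbumin of the distal convoluted tubule (r = 0.897), and Klhl3, a ubiquitin ligase adaptor that acts there (r = 0.896). The summed level of loop and distal tubule markers was 636 to 1120 CPM in obstructed Total, against 2040 to 5890 CPM in contralateral kidneys. In PT it was 47.9 to 76.5 CPM at day 5 and 51.2 to 159 CPM at day 10, against 115 to 240 CPM in contralateral kidneys. Of these 10 markers 5 fell in Total at day 5 and 6 at day 10, with none higher, while in PT 5 fell and 2 rose at day 5 and 3 fell and 2 rose at day 10. Umod, the uromodulin gene of the thick ascending limb, did not pass in Total, with 614 ± 106 CPM at day 5 and 584 ± 116 CPM at day 10, against 727 ± 308 CPM in contralateral kidneys. Proximal tubule markers fell too, 11 of 12 in PT and 12 of 12 in Total at both days. The log2 difference of Lhx1 between PT and Total was -0.59 in contralateral kidneys and -0.395 at day 5, both under 2-fold. The median difference of the loop and distal tubule markers was -4.26 and -3.8. The part of loop, distal or proximal tubule cells in the Lhx1 result was not tested.

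The odd-skipped factors Osr1 and Osr2 differed. Osr1, the earliest marker of nephron progenitors, fell at day 10 in both fractions, with -1.29 ± 0.41 in PT (edgeR adjusted p = 0.0117) and -1.91 ± 0.41 in Total (edgeR adjusted p = 0.00034). PT libraries held 0.92 to 6.18 CPM (median 2.37) at day 5 and 0.68 to 4.10 CPM (median 1.26) at day 10, against 1.58 to 7.95 CPM (median 3.83) in contralateral kidneys. Total libraries held 0.44 to 3.43 CPM (median 1.24) at day 5 and 0.37 to 1.52 CPM (median 0.55) at day 10, against 1.11 to 5.8 CPM (median 2.45) in contralateral kidneys. All groups overlapped, and counts were as low as 5 reads. At day 5 the values were -0.86 ± 0.41 in PT and -0.88 ± 0.39 in Total (edgeR adjusted p = 0.0842 and 0.0546). The day 5 change passed both thresholds in PT without female contralateral replicate 3 or female day 5 replicate 3 (-1.05 and -1.14), and in Total without male day 5 replicate 4, female contralateral replicate 3 or female day 5 replicate 3 (-1.18, -1.01 and -1.07). With library size alone the PT day 10 change was -0.87 (edgeR adjusted p = 0.0598).

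Osr2 did not pass the test in PT, where the log2 changes were 0.01 ± 0.17 and -0.15 ± 0.17, with 38.5 ± 8.94 CPM at day 5 and 36.4 ± 16.7 CPM at day 10, against 38.3 ± 13.2 CPM in contralateral kidneys. At day 10 the 3 females held 46.2 to 59.5 CPM and the 4 males 17.8 to 26.1 CPM in PT, with no overlap. Females averaged 53.5 ± 6.74 CPM at day 10 against 48.6 ± 12.9 CPM in contralateral kidneys, and males 23.6 ± 3.86 CPM against 30.6 ± 7.05 CPM, and the sex by day 10 interaction of 0.52 ± 0.34 did not pass the test. In Total it fell at day 10, to 5.46 to 16.8 CPM (median 12.2), with 10.5 to 36.1 CPM (median 18.2) at day 5, against 13.9 to 40.8 CPM (median 25.4) in contralateral kidneys. The day 10 change was -1.03 ± 0.20 (edgeR adjusted p = 8.6e-05) and that at day 5 was -0.35 ± 0.19 (edgeR adjusted p = 0.127). The day 10 change fell under 2-fold, at -0.912 to -0.999, without male contralateral replicate 1, male day 10 replicate 3 or 4, female contralateral replicate 1 or female day 10 replicate 3, and was -0.69 with library size alone. Osr2 was higher in PT than in Total by 1.04 ± 0.19 at day 5 (edgeR adjusted p = 1.08e-05) and 1.63 ± 0.19 at day 10 (edgeR adjusted p = 2.88e-09), and by 0.72 ± 0.18 in contralateral kidneys, under 2-fold. The day 5 difference was 0.97 without male day 5 PT replicate 4, 0.96 without female day 5 PT replicate 3 and 0.79 with library size alone. The difference between the responses, 0.91 ± 0.26 at day 10, had an adjusted p of 0.0216 in edgeR and was under 2-fold. With Lars2 as a covariate it was 1.04. It passed 2-fold without male day 10 Total replicate 1 (1.01), male day 10 PT replicate 3 (1.02) or female day 10 PT replicate 2 (1.01), and marginally without female day 10 Total replicate 2.

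Pax8, a paired-box factor that adult tubules keep, was the most abundant of the 10 in PT obstructed kidneys by RPKM and stayed just short of the 2-fold limit. PT libraries held 88.8 to 251 CPM (median 160) at day 5 and 109 to 248 CPM (median 155) at day 10, against 61.3 to 111 CPM (median 84.9) in contralateral kidneys. The log2 changes were 0.85 ± 0.18 at day 5 (edgeR adjusted p = 0.000546) and 0.94 ± 0.18 at day 10 (edgeR adjusted p = 0.000202). They passed 2-fold with library size alone (1.34 and 1.4), and at day 10 without female day 10 replicate 1 (1.06). Both days also passed with limma on log2(RPKM + 1) (1.24 and 1.27) and on log2(RPKM + 0.1) (1.31 and 1.34). In Total they were 0.35 ± 0.16 and 0.09 ± 0.16 (edgeR adjusted p = 0.0671 and 0.641), with 110 ± 42.4 CPM at day 5 and 90.6 ± 17.7 CPM at day 10, against 86.1 ± 19.0 CPM in contralateral kidneys. The response in PT exceeded that in Total by 0.88 ± 0.25 at day 10 (edgeR adjusted p = 0.0191), under 2-fold, and by 1.01 and 1.02 without female day 10 replicate 2 of Total or replicate 1 of PT. Of the 10 genes 4 had an adjusted p under 0.05 at any fold in that comparison, against 8.27% of all genes.

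At day 5 the Pax8 values parted by sex. In PT the 3 females held 203, 251 and 188 CPM and the 4 males 88.8, 160, 98.0 and 92.5 CPM. In Total the females held 126, 170 and 157 CPM and the males 76.5, 108, 67.2 and 68.2 CPM. Females and males did not overlap in either fraction at day 5, while in contralateral kidneys they overlapped, with 61.3 to 84.9 CPM in females and 66.8 to 111 CPM in males in PT. The day 5 response was larger in females by 1.28 ± 0.37 in PT (edgeR adjusted p = 0.161) and by 1.24 ± 0.33 in Total (edgeR adjusted p = 0.0829), so neither passed with edgeR. In Total it passed with DESeq2 (adjusted p = 0.0188) and with Lars2 as a covariate (1.42, adjusted p = 0.0187). No interaction of sex with day passed for any of the 10 genes, where 0.502% and 0.208% of genes did in PT at day 5 and day 10, and 0.59% and 0.185% in Total. An unadjusted p under 0.05 was given to Pax8 in PT at day 5, to Pax8, Wt1 and Sall1 in Total at day 5 and to Pax2 in Total at day 10. Such a p was given to 1287 of 14932 genes in PT at day 5, and to 2402 and 1069 of 16782 genes in Total at day 5 and day 10.

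Sall1, a zinc-finger factor of nephron progenitors, was the only 1 of the 9 genes tested that differed between females and males in contralateral PT, where 4.13% of genes did. Females held 41.2, 41.7 and 89.1 CPM and males 16.6, 26.0, 18 and 14.5 CPM, with no overlap. The difference was 1.59 ± 0.34 (edgeR adjusted p = 0.00527). Without the female library of 89.1 CPM, replicate 3, it was 1.13 with an adjusted p of 0.0745. In Total the females held 33.8, 40.5 and 48.3 CPM and the males 19.7, 29.6, 23.3 and 22.2 CPM, again with no overlap, and the difference of 0.79 ± 0.22 (edgeR adjusted p = 0.0487) was under 2-fold. No gene of the 10 was called there, where 2.76% of genes were and 3.85% had an adjusted p under 0.05 at any fold. Without male contralateral replicate 1 Osr2 was called (1.10, edgeR adjusted p = 0.0249), and without female contralateral replicate 1 Tcf21 (1.16, edgeR adjusted p = 0.0185). With obstruction Sall1 did not pass the test in either fraction, with 33.5 ± 14.4 CPM at day 5 and 30.7 ± 11.3 CPM at day 10 in PT, against 35.3 ± 26.3 CPM in contralateral kidneys (log2 changes 0.02 ± 0.24 and -0.13 ± 0.24).

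**Figure D4:**
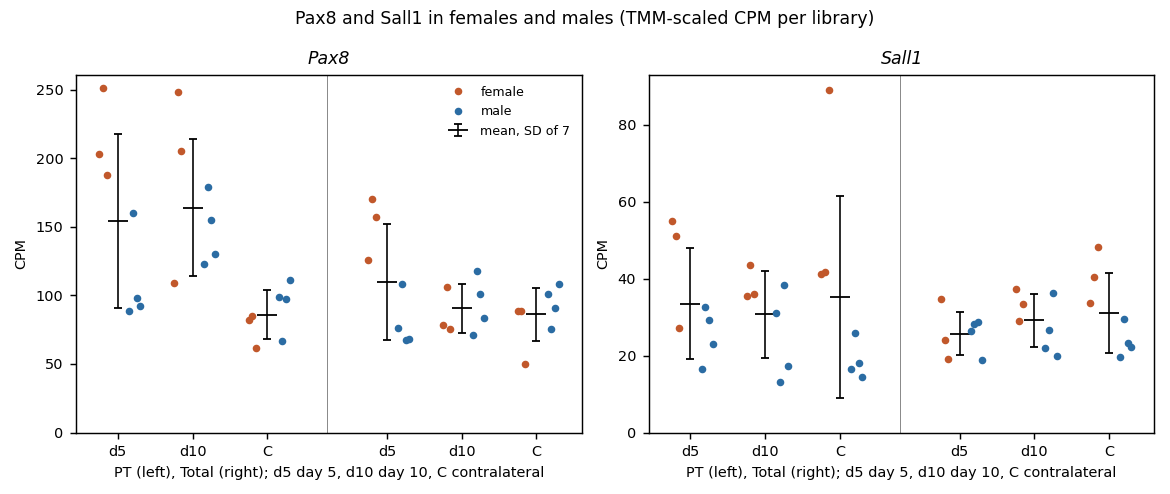
CPM of Pax8 (left) and Sall1 (right) in every library of PT and Total at day 5, at day 10 and in contralateral kidneys, females orange and males blue, with the mean and SD of the 7 libraries in black. Pax8 females lie above males at day 5 in both fractions, and Sall1 females lie above males in contralateral kidneys.

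Pax2, the paired-box relative of Pax8, had 8.95 ± 2.32 CPM at day 5 and 7.79 ± 2.51 CPM at day 10 in PT, against 6.85 ± 1.34 CPM in contralateral kidneys, and 8.34 ± 2.16 and 8.74 ± 3.82 CPM in Total, against 7.27 ± 1.58 CPM. Its log2 changes, 0.41 ± 0.20 and 0.19 ± 0.20 in PT and 0.17 ± 0.20 and 0.25 ± 0.20 in Total, did not pass the test. Irx1, an Iroquois-homeobox factor of the middle nephron, was near 0 in PT, with 6 reads over the 7 libraries at day 5 and 28 at day 10, against 11 in contralateral kidneys. It failed the filter there, and without the filter the changes were -0.78 (edgeR adjusted p = 0.629) and 0.83 (edgeR adjusted p = 0.501). In Total it was 1.48 ± 1.14 CPM at day 5 and 1.73 ± 0.88 CPM at day 10, against 1.25 ± 0.72 CPM in contralateral kidneys, and neither change passed the test (0.10 ± 0.48 and 0.60 ± 0.46).

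**Figure D5:**
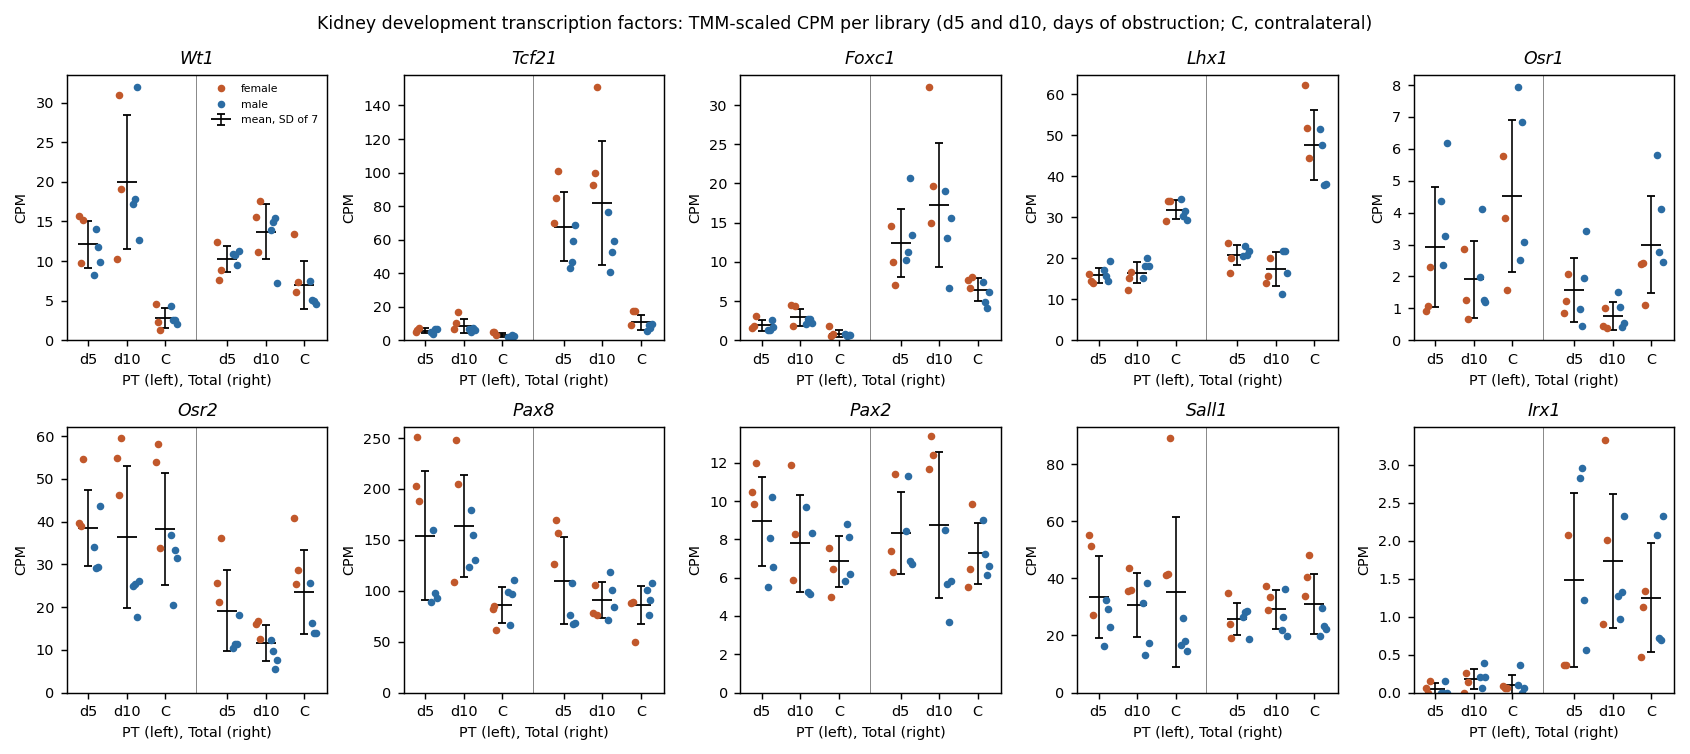
CPM of each gene in every library, with PT left of the line and Total right of it, at day 5 (d5), at day 10 (d10) and in contralateral kidneys (C); females are orange, males blue, and black marks the mean and SD of the 7 libraries. Obstructed and contralateral libraries separate for Wt1 in PT, for Tcf21 in Total and for Lhx1 in both, and overlap for the other genes. The share of all genes that separate in this way was not counted.

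Between the fractions, 4 genes were lower in PT than in Total in contralateral kidneys (Wt1, Irx1, Foxc1 and Tcf21) and none was higher, where 22.9% of 17110 genes were lower and 1.16% higher. At day 5 Irx1, Foxc1 and Tcf21 were lower and Osr2 higher, against 23.8% and 4.02% of genes, and at day 10 the same 3 were lower and Osr1 and Osr2 higher, against 23% and 7.07%. Tcf21 was lower by 3.57 ± 0.22 at day 5, 3.25 ± 0.21 at day 10 and 1.77 ± 0.21 in contralateral kidneys (-3.57, -3.25 and -1.77). Foxc1 was lower by 2.66 ± 0.27, 2.57 ± 0.27 and 2.94 ± 0.29 (-2.66, -2.57 and -2.94), and Irx1 by 4.49 ± 0.70, 3.29 ± 0.57 and 3.58 ± 0.66 (-4.49, -3.29 and -3.58), in the same order of states. PT and Total libraries of these 3 did not overlap in any state. Osr1 was higher in PT at day 10 by 1.31 ± 0.45 (edgeR adjusted p = 0.0117), which became 0.97 (edgeR adjusted p = 0.0713) without female day 10 PT replicate 1, and at day 5 it was 1.07 and passed without male day 5 Total replicate 4. Pax8 at day 10 was higher in PT by 0.88 ± 0.18 and passed 2-fold without male or female day 10 Total replicate 2 or female day 10 PT replicate 1 (1.01, 1.04 and 1.02). On limma's log2(RPKM + 1) scale Wt1 in contralateral kidneys was -0.62 and Irx1 -0.69 at day 5, -0.78 at day 10 and -0.49 in contralateral kidneys, all under 2-fold.

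Levels of different genes were compared per length, as RPKM, which divides by library size and not by the TMM-scaled size. In PT at day 10 the order was Pax8 (26.8 ± 9.78 RPKM), Osr2 (20.8 ± 10.2), Tcf21 (6.95 ± 3.63), Sall1 (5.88 ± 2.51), Lhx1 (3.97 ± 0.71), Wt1 (3.24 ± 1.60), Pax2 (1.4 ± 0.45), Osr1 (0.91 ± 0.53), Foxc1 (0.72 ± 0.28) and Irx1 (0.08 ± 0.06). In contralateral PT it was Osr2 (16.5 ± 5.87 RPKM), Pax8 (10.5 ± 1.86), Lhx1 (5.82 ± 0.62), Sall1 (5.05 ± 3.81), Tcf21 (1.88 ± 0.79), Osr1 (1.65 ± 0.87), Pax2 (0.94 ± 0.21), Wt1 (0.34 ± 0.16), Foxc1 (0.16 ± 0.09) and Irx1 (0.03 ± 0.04). Neighbours in these orders had overlapping mean ± SD intervals, except Osr2 and Tcf21 and Foxc1 and Irx1 at day 10, and Pax8 and Lhx1 and Pax2 and Wt1 in contralateral kidneys. Wt1 stood below Osr1 and Pax2 in contralateral PT and above both at day 10. In Total at day 10 Tcf21 led with 78.3 ± 32.4 RPKM before Pax8 with 17.9 ± 4.05 RPKM. In contralateral Total Pax8 (13.1 ± 3.07 RPKM), Osr2 (12.7 ± 5.8 RPKM), Lhx1 (10.8 ± 2.57 RPKM) and Tcf21 (8.05 ± 3.76 RPKM) had overlapping intervals.

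Among 40 other transcription factors of kidney development, 6 of the 28 tested in PT rose at day 5 and 2 fell, and 8 rose and 2 fell at day 10. In Total 5 of 33 rose and 4 fell at day 5, and 6 rose and 4 fell at day 10. These shares lay mostly near those of all genes, of which 18.2% rose and 12.4% fell in PT at day 5, 19.7% and 12% in PT at day 10, 19.2% and 13.3% in Total at day 5 and 20.9% and 13.8% in Total at day 10. Their median log2 change was 0.10 and 0.50 in PT, where that of all genes was 0.05 and 0.05, and -0.05 and 0.09 in Total, where that of all genes was 0.04 and 0.06. Heyl, a Notch target, rose most in PT (4.75 ± 0.34 at day 5 and 5.13 ± 0.34 at day 10), to 9.31 and 12.6 CPM against 0.35 CPM in contralateral kidneys. Irx5 (3.00 ± 0.56 and 3.28 ± 0.55) and Meis2 (1.02 ± 0.27 and 1.08 ± 0.27) rose in PT at both days, Irx3 at day 5 (1.27 ± 0.21) and Foxi1, the intercalated cell factor, at day 10 (1.04 ± 0.31). Hnf4a, a factor that maintains proximal tubule genes, fell in PT to 275 CPM at day 5 and 271 CPM at day 10 against 607 CPM in contralateral kidneys (-1.19 ± 0.14 and -1.24 ± 0.14). In Total Hoxa11 (2.93 ± 0.30 and 3.07 ± 0.30), Heyl (2.73 ± 0.19 and 2.63 ± 0.19), Hoxd11 (2.14 ± 0.27 and 2.60 ± 0.27) and Meis1 (1.95 ± 0.20 and 1.89 ± 0.20) rose, and Hnf4a, Emx1 and Sall3 fell.

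Of 27 signals of nephron formation, 9 of 21 tested in PT rose at day 5 and 5 fell, and 10 rose and 2 fell at day 10. In Total 12 of 23 rose and 3 fell at day 5, and 11 rose and 3 fell at day 10. Of all genes 18.2% rose and 12.4% fell in PT at day 5 and 19.7% and 12% at day 10, and 19.2% and 13.3% in Total at day 5 and 20.9% and 13.8% at day 10. The median log2 change was 1.02 and 0.89 in PT, where that of all genes was 0.05 at both days, and 1.06 and 1.11 in Total, where that of all genes was 0.04 and 0.06. Cdh6, a cadherin of the early proximal nephron, rose in PT (4.83 ± 0.39 and 5.47 ± 0.39), as did Ncam1, an adhesion molecule of nephron progenitors (3.41 ± 0.36 and 4.15 ± 0.37), and Lif, a cytokine that induces nephrons (4.99 ± 0.46 and 5.08 ± 0.46). Gdnf, the ligand that drives ureteric bud growth, rose to 1.19 CPM at day 5 and 1.34 CPM at day 10, against 0.0166 CPM in contralateral kidneys, too few reads for a fold. Bmp7 fell to 15.9 CPM at day 5 and 18.1 CPM at day 10, against 57.4 CPM in contralateral kidneys (-1.95 ± 0.15 and -1.71 ± 0.14), and Fgf9 fell too (-1.52 ± 0.22 and -1.24 ± 0.22). Gfra1, the Gdnf co-receptor, fell in PT at day 5 (-6.16 ± 1.35) with Slit2 (-1.20 ± 0.33). The standard error of Gfra1 was large and its level is not reported here, so the size of its fall is uncertain. In Total Lif, Ncam1 and Wnt4, the signal that turns progenitors into epithelium, rose at both days, with Wnt4 at 2.43 ± 0.44 and 4.07 ± 0.45. Bmp7 (-1.88 ± 0.14 and -1.90 ± 0.14), Fgf9 (-1.58 ± 0.17 and -1.61 ± 0.17) and Gfra1 (-2.82 ± 0.66 and -1.50 ± 0.61) fell in Total.

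Within a sex, state and fraction, some of the 10 genes varied together between libraries, given as Pearson's r of log2 CPM after removing group means, over 21 libraries that share preparation and depth. Osr1 and Osr2 ran together (r = 0.685 in PT and 0.706 in Total), and each ran against Sall1 (r = -0.621 for Osr1 and -0.767 for Osr2 in PT, and -0.652 and -0.619 in Total). Pax2 ran against Lhx1 in PT (r = -0.701) and less so in Total (r = -0.313). These pairs were named for having the strongest r, in either direction, of all pairs of the 10 genes within a fraction. Over all 42 libraries the genes most like Osr1 were Echdc2 (r = 0.85), Pex11a (r = 0.846) and Akr1c21 (r = 0.814), and those most like Osr2 were Rsph9 (r = 0.851), Cd63 (r = 0.846) and Parl (r = 0.832). Those most like Irx1 were Gata3 (r = 0.889), Ckb (r = 0.886) and Dmrt2 (r = 0.886), and those most like Pax8 were Cct5 (r = 0.843), Dpf2 (r = 0.83) and Ppil2 (r = 0.823). For Sall1 they were Tm9sf2 (r = 0.785), Eif2s3x (r = 0.783) and Dpp4 (r = 0.756), and for Pax2, whose likenesses were the weakest, Prrc2a (r = 0.741), Mypop (r = 0.706) and Brpf3 (r = 0.692).

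The 10 genes lie on 8 mouse chromosomes in GENCODE M21 (GRCm38), matched by symbol, since the build of the deposited counts is not given in the sources used here. All are protein coding. Wt1 spans chr2:105126529-105173616 on the plus strand, Pax8 chr2:24420560-24475599 on the minus strand, Tcf21 chr10:22817281-22820174 on the minus strand, Foxc1 chr13:31806633-31812476 on the plus strand and Lhx1 chr11:84518284-84525535 on the minus strand. Tcf21 is overlapped over its whole length by the antisense gene Gm10824, not analysed here. Pax8 overlaps Gm13415, Pax2 overlaps Gm20395, Mir6405 and 1700039E22Rik, and Osr1 overlaps 1700022H16Rik. Gm13415, Gm20395, 1700039E22Rik and 1700022H16Rik had at most 0.79 CPM in a library.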

How the data were processed

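RNA from 42 mouse kidney libraries, 4 males and 3 females in each state and fraction, was analysed by sequencing. The authors deposited raw counts per gene symbol, made with STAR 2.0.4b, Subread and featureCounts 1.4.5, per the submitters' processing notes. They also deposited RPKM values, which hold the same counts per library size and gene length, as tested on the files. Genome build, annotation and strand setting are not given in the sources used here, and GENCODE M21 and RefSeq were matched by symbol.

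The counts were fitted with edgeR 4.0.16 (R 4.3.3, limma 3.58.1), with TMM scaling, edgeR's filter on low counts and groups of sex, state and fraction. PT and Total were fitted apart for obstruction and sex, and together for fraction. States were averaged over the sexes with equal weight. Calls needed a Benjamini-Hochberg adjusted p under 0.05 over all genes and at least 2-fold, and standard errors are the log2 change over the square root of F, an approximation. The 10 genes and all lists were chosen with earlier results of these data known. Named were the 10 genes, of 2 lists up to 4 genes called each way by size with a mean of at least 1 CPM on 1 side, and the 3 genes (for Wt1 in PT 5) of highest Pearson r. Some genes that the rule names are not reported here. Alternatives were RLE factors, library size alone, no filter, 5 CPM in 3 libraries, DESeq2 1.42.0, limma on log2(RPKM + 1) or + 0.1, compared groups alone, no minimum fold, Lars2 as covariate, a replicate block and leaving out each library. The PT day 5 test was run on simulated counts with few planted changes and the same dispersion for every gene. Far more genes were called in the deposited counts, so the simulation did not test the scaling. Same-numbered contralateral PT and Total libraries deviated together (r from 0.343 to 0.749 over the 8000 highest genes), so the numbers pair them. Over all 17110 genes PT and Total at day 10, and Total at day 10 and contralateral, also had all 7 correlations over 0.1. Over the 8000 highest genes these did not, with a lowest r of 0.0422 and 0.0655. PT and Total at day 5 did not in either gene set (lowest r -0.318 and -0.086). Nor did libraries of different states, apart from Total at day 10 and contralateral.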

Additional observations from a re-analysis of the deposited data

Results flagged for a closer look

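In 4 of 60 groups of 7 libraries 1 library stood apart by Dixon's criterion, which chance gives in about 1 in 20 groups. All 4 were contralateral. Wt1 in Total was 13.4 CPM in female replicate 1 and 4.6 to 7.45 CPM in the other 6. Sall1 in PT was 89.1 CPM in female replicate 3 and 14.5 to 41.7 CPM in the others. Irx1 in PT was 0.369 CPM in male replicate 2 and at most 0.1 CPM in the others. Foxc1 in PT was 1.84 CPM in female replicate 1 and 0.528 to 0.822 CPM in the others.

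The response to obstruction differed between PT and Total for Wt1 and Tcf21, by the interaction in edgeR. It was larger in PT for Wt1 (1.62 at day 5 and 1.89 at day 10 on the log2 scale) and smaller in PT for Tcf21 (-1.80 and -1.47).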

How the results depend on the processing

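No direction of a called value reversed under any alternative. Counts of called genes among the 10 changed as follows, and the cause was not tested. Only the larger changes are listed. Among those left out, no minimum fold gave 6 instead of 4 between PT and Total in contralateral kidneys and at day 5. It gave 6 instead of 5 at day 10 in PT, in Total and between them. Without a minimum fold, PT at day 5 gave 5 instead of 3, Total at day 5 gave 4 instead of 2, the fraction by day 10 interaction 4 instead of 2 and female against male in contralateral Total 1 instead of 0. With at least 5 CPM in 3 libraries, which tests fewer genes, PT at day 5 gave 1 and at day 10 gave 2 instead of 5. On limma's log2(RPKM + 1) scale, with and without the filter, the counts were 3 in PT at day 10, 1 in Total at day 5, 2 instead of 5 in Total at day 10, 2, 3 and 2 instead of 4, 5 and 4 between PT and Total at day 5, at day 10 and in contralateral kidneys, 1 for each fraction interaction and 0 instead of 1 for female against male in contralateral PT. That scale understates changes of low genes, and it also divides by library size and not by the TMM-scaled size. Osr2 in Total at day 10 was -0.60 on it and -0.69 in edgeR with library size alone. Pax8 in PT at day 5 was 1.24 and 1.34. DESeq2 and the Lars2 covariate each gave 1 call instead of 0 for sex by day 5 in Total, both Pax8. With that covariate Foxc1 in Total at day 5 (1.02) and Osr2 in the fraction by day 10 interaction (1.04) also passed 2-fold. Leaving out 1 library gave 2 to 4 calls for the fraction by day 10 interaction (4 without female day 10 Total replicate 2), 0 to 1 for female against male in contralateral PT (0 without female replicate 3) and 0 to 1 in contralateral Total. Library size alone took Tcf21 in PT at day 5 to 1.35 and Foxc1 in Total at day 5 to 1.31, both past 2-fold.

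With the replicate block, which treats libraries of 1 sex and number as a unit across states, no call of the 10 genes changed. Over the 8000 highest genes same-numbered libraries of different states did not all deviate together (contralateral and day 5 PT, r from -0.673 to 0.589). That fit therefore does not show whether pairing matters. The block could not be fitted for female against male, since numbers lie within a sex. Low counts limit Irx1 and Foxc1 in PT and Osr1 in both fractions.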
